A study of Homo sapiens with 6 samples.

Results

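Neuropeptide and peptide hormone genes encode the secreted messengers by which neuroendocrine cells act on themselves, their neighbors and distant organs. Such genes were chosen by symbol from the RNA-Seq of NCI-H660 (H660) cells, an established line of neuroendocrine prostate cancer (NEPC). The 10 genes were GRP, CALCA, CALCB, NMU, NTS, SST, VIP, TAC1, GAL and ADCYAP1, and all 10 were found among the 28008 gene symbols of the count table and in the TPM table. They were matched by symbol for what they encode, not by a threshold on a measured value.

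By the study's methods, all libraries came from H660 cells transduced with the same tetracycline-inducible vector for a short hairpin RNA (shRNA) against MUC1 and selected in puromycin, and whether the line was 1 clone is not given in the sources used here. MUC1 encodes a membrane mucin, and doxycycline (DOX) turns on the hairpin. The DOX-negative group (3 libraries) received 0.1% DMSO as vehicle, and the DOX-positive group (3 libraries) received DOX at 500 ng/ml. The 6 libraries include no DOX-treated cells without the hairpin, so that an effect of DOX itself and an effect of MUC1 silencing cannot be told apart. The labels describe cells cultured in triplicate but do not say how separate these cultures were, so the p values measure the spread between these libraries.

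Peptides of this kind are made as long precursors, cut by prohormone convertases in dense-core vesicles, often amidated at the C terminus, and released on stimulation to act on G protein-coupled receptors. Neuroendocrine carcinomas are known for making several of them at once, and GRP, the mammalian relative of bombesin, is a classic autocrine growth factor of small cell carcinomas. Several of the precursor genes respond to cyclic AMP through CRE elements, at which the factor CREB binds.

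Total counts were between 47620696 and 74061121 per library and did not separate the groups (exact two-sided permutation p = 0.30, where 3 against 3 cannot give less than 0.10). The targeted gene fell as labelled, since MUC1 was between 79.6 and 90.2 CPM (counts scaled to library size, with normalization factors) in the DOX-negative libraries and between 29.9 and 37.2 CPM in the DOX-positive libraries, a change of -1.32 in log2 (SE 0.096) with an edgeR adjusted p of 0.000173. The neuroendocrine label held in the data, as all 10 markers of that list reached a mean of at least 1 TPM, among them CHGA at 28.0, SYP at 19.4 and CHGB at 14.4 TPM. Of 10 tested neuroendocrine markers, 2 (INSM1 and NCAM1) fell with DOX and 0 rose at an edgeR adjusted p under 0.05, as 4.87% of all 17026 tested genes passed. The groups of 4 of the 10 did not overlap in CPM, against 28.1% of all tested genes. These included DDC at -0.93 (edgeR adjusted p = 0.149) and CHGB at 0.29 (0.175), which did not pass. The luminal prostate markers, of which 7 of 8 symbols were found, summed to between 0.64 and 0.97 TPM per library. KLK3 was at 0 counts in all 6 libraries, whereas TMPRSS2 had 125 to 201 and SLC45A3 had 83 to 159 counts per library. On TPM rescaled over protein-coding genes, a scale described below, TMPRSS2 and SLC45A3 had means of 2.74 and 2.07. Basal epithelial markers summed to 0.37 to 0.64 TPM without and 0.41 to 0.56 TPM with DOX, and fibroblast markers to 2.41 to 3.48 and 2.46 to 3.65 TPM. Immune markers summed to 0.32 to 0.43 and 0.53 to 0.72 TPM, and endothelial markers to 0.37 to 0.57 and 0.74 to 0.90 TPM, so that the groups overlapped for the basal and fibroblast sums and not for the immune and endothelial sums. KRT5, COL3A1, PTPRC and CD3E had at most 1 count in a library. Other members of these lists were higher, with 59 to 117 counts for KRT15, 347 to 961 for COL1A1 and 54 to 144 for CD68. COL1A1 and LUM of 3 tested fibroblast markers, CD68 of 1 tested immune marker, and CDH5 and VWF of 3 tested endothelial markers rose with DOX. The share over all tested genes that passed was 4.87%, with 2.91% higher. The remaining tested fibroblast marker, COL1A2, had means of 18.1 ± 3.48 (DOX-negative) and 11.1 ± 3.77 CPM (DOX-positive; SD, n = 3) and no overlap between groups, with a log2 value of -0.71 and an edgeR adjusted p of 0.20, and the remaining endothelial marker, KDR, was at -0.74 (adjusted p = 0.44). The part of these markers in the results that follow was not tested.

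The first question was which peptides H660 cells express. Levels between genes were compared in TPM, which are counts per gene length scaled to a common total, and a gene was taken as expressed at a mean of at least 1 TPM in at least 1 group. By that measure 6 of the 10 genes were expressed (CALCA, CALCB, GRP, ADCYAP1, NMU and GAL), NTS was detected below it, and SST, VIP and TAC1 were at or near 0. The TPM scale of mRNAs was compressed in these libraries, since protein-coding genes held 13.2% to 19.65% of the TPM, while the most abundant entry, RN7SK in 5 libraries and SNORD3A in DOX-negative replicate 3, held 25.65% to 34.5%. When TPM was rescaled over protein-coding genes, a scale chosen after the data were seen, 7 of the 10 genes reached 1, the added gene being NTS. A limit of 0.5 TPM also gave 6 genes and a limit of 5 TPM gave 3, while 7 genes had at least 10 counts in every library.

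CALCA ranked first. This gene encodes calcitonin and, by alternative splicing, the vasodilator CGRP-alpha, which gene counts do not separate. CALCA was at 9.29, 10.1 and 8.28 TPM in DOX-negative replicates 1, 2 and 3 and at 10.7, 8.71 and 9.93 TPM in the DOX-positive replicates. CALCB, the neighboring gene for CGRP-beta, came second at 8.72, 9.64 and 7.74 TPM without DOX and 9.13, 7.17 and 7.02 TPM with DOX. CALCA (chr11:14966668-14972351 in RefSeq, GRCh38.p14) and CALCB (chr11:15073593-15078637) are neighbors, and CALCA exceeded CALCB in 6 of 6 libraries, by 1.15 times on average, although the ranges of these genes over libraries overlapped. Both are close paralogs, and how reads shared between them were counted is not given in the sources used here, so their split is uncertain.

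GRP, the precursor of gastrin-releasing peptide, came next, at 7.54, 9.15 and 5.72 TPM without DOX and 6.29, 4.37 and 4.21 TPM with DOX. CALCB was above GRP in every library, but their ranges overlapped. ADCYAP1, the precursor of the cyclic AMP-raising peptide PACAP, followed at 1.97 to 3.36 TPM (median 2.68), below all GRP values by a factor of 2.29 in the mean. NMU, which encodes neuromedin U, a peptide that contracts smooth muscle and reduces feeding, was at 1.19 to 2.53 TPM (median 1.87). GAL, the galanin gene, was at 0.93 to 1.34 TPM (median 1.25). The ranges of ADCYAP1 and NMU and those of NMU and GAL overlapped, although the order held within each library. CALCA, CALCB and GRP together supplied 76.8% to 81.5% of the summed TPM of the 10 genes.

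NTS, the gene for neurotensin, was at 0.24 to 0.65 TPM, separated from all GAL values. In the DOX-negative libraries it was at 0.382, 0.383 and 0.384 TPM, whereas DOX-positive replicate 1 was highest at 0.649 and the other DOX-positive libraries were lowest at 0.300 and 0.244. The last 3 genes could not be called expressed at this depth. SST, the gene for the release-inhibiting hormone somatostatin, had 1, 2 and 0 counts without DOX and 2, 0 and 0 counts with DOX. VIP, a vasoactive neuropeptide of the PACAP family, had 0 counts in the DOX-negative libraries and 0, 2 and 1 counts in the DOX-positive libraries. TAC1, the precursor of substance P and neurokinin A, had 1 count in DOX-negative replicate 3 and 0 in the other libraries. A count of 0 allows up to 3 counts in a library, or 0.040 to 0.063 CPM, a limit that covers counting error only. No fold change was given for these 3 genes, since both groups were at or under that floor.

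**Figure D1:**
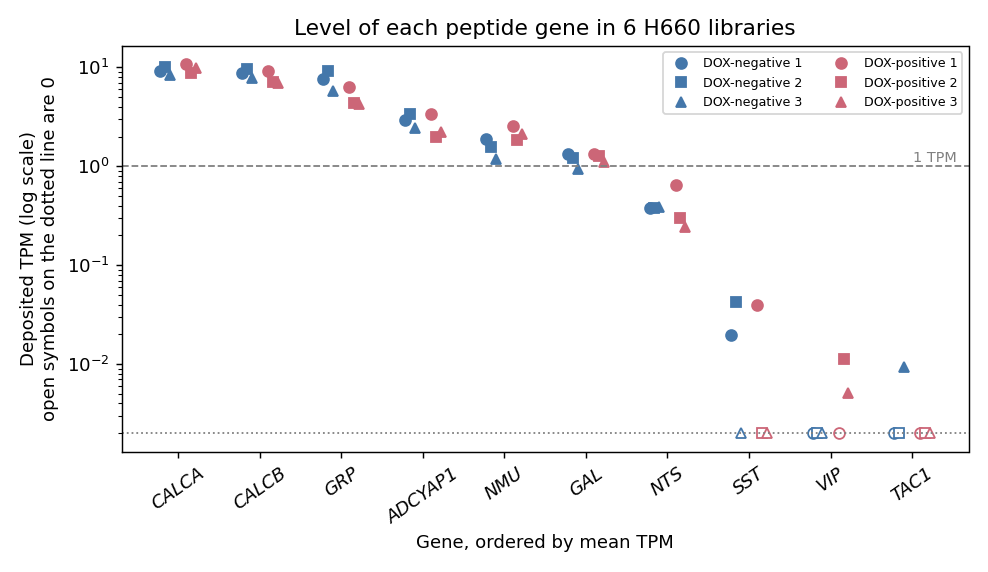
Deposited TPM (log axis) of the 10 peptide genes in each of 6 libraries, ordered by mean TPM, with DOX-negative in blue, DOX-positive in red and replicates 1 to 3 as circle, square and triangle. CALCA, CALCB, GRP, ADCYAP1, NMU and GAL lie around or above the dashed line at 1 TPM, NTS below it, and most SST, VIP and TAC1 values are 0, drawn as open symbols on the dotted line.

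The sequence before the start site was examined for genes at the top, the middle and the bottom of this order. RefSeq promoters (GRCh38.p14) matched 8 of the 10 genes, all but CALCB and GAL. The 250 bases before the start are printed 5′ to 3′ for GRP, the gene that changed with DOX as described below, for CALCA, which was most abundant, and for SST, which had at most 2 counts in a library. Capitals mark matches to TGACG, the core of the CRE, and to TATAAA, the letters of the TATA box, at any position. Both strands were searched (CGTCA and TTTATA when read on the opposite strand).
GRP promoter (chr18:59219908-59220157, plus strand): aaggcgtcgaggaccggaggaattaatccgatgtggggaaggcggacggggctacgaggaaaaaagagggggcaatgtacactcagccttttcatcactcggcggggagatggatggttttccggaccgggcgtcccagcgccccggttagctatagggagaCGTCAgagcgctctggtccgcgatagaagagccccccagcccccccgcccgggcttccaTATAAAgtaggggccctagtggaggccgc
CALCA promoter (chr11:14972352-14972601, minus strand): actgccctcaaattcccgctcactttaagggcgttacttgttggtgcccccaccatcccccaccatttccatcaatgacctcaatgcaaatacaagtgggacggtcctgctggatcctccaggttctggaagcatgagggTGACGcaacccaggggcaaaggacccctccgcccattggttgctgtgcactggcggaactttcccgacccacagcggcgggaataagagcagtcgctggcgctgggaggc
SST promoter (chr3:187670395-187670644, minus strand): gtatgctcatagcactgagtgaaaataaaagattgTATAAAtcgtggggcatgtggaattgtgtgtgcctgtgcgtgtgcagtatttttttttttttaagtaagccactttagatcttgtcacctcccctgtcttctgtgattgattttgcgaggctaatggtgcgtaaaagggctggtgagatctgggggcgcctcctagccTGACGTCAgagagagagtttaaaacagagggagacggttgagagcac

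The TGACG core was found in the promoters of 7 of the 8 matched genes (ADCYAP1, CALCA, GRP, NTS, SST, TAC1 and VIP), and the exception was NMU. On both strands, 21.2% of all 35116 promoter windows of this length held the core. The full palindrome TGACGTCA, which contains the core on both strands, was found for SST and in 1.65% of all windows. TATAAA, searched on both strands, was found for GRP, SST and VIP and in 10.7% of windows. Relative to the start, the match lay at -29 to -24 in GRP but at -215 to -210 in SST. In VIP the match nearest the start lay at -30 to -25, with others further away. The E-box CAGCTG was found for ADCYAP1 and in 14.0% of windows, and a REST site motif was found for 0 of the 8 genes and in 0.0142% of windows. Genes were counted if any of their windows held a match, whereas the shares are per window. For ADCYAP1 the core and the E-box were in the window at chr18:905116-905365 and not in that at chr18:904621-904870. The core was present in genes at the top and at the bottom of the order, and these matches are a description of letters, not of binding.

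Next, the 3 DOX-positive libraries were compared with the 3 DOX-negative libraries to ask which peptide transcripts differed with DOX. GRP was lower with DOX and was the member that passed the test. NMU was 1.37-fold higher and ADCYAP1 was at 0.84 of its DOX-negative level without passing it, and CALCA, CALCB, GAL and NTS overlapped between the groups. Of the 10 genes, 7 passed the filter on low counts and were tested, of which 1 was lower, 0 were higher and 6 did not pass. Over all 17026 tested genes 4.87% were called (829 genes), with 1.96% called lower and 2.91% called higher. At an unadjusted p under 0.05 there were 3 of the 7 members, GRP, NMU and ADCYAP1, against 3597 of the 17026 tested genes (21.1%). The median log2 fold change of the 7 was -0.03, against 0.00034 over all tested genes, with 3 above 0 and 4 below. Because these are bulk samples, fewer cells making a transcript and less of it per cell cannot be told apart.

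GRP was at 9.11, 10.4 and 8.44 CPM in DOX-negative replicates 1, 2 and 3 and at 6.36, 6.66 and 5.29 CPM in the DOX-positive replicates. Every DOX-positive library was below every DOX-negative library. The means were 9.33 ± 1.01 and 6.10 ± 0.72 CPM (SD, n = 3), from 366 to 645 counts per library. The log2 change, DOX-positive over DOX-negative, was -0.62 (SE 0.12, 95% interval -0.88 to -0.35; edgeR adjusted p = 0.019), which is 0.65 of the DOX-negative level. In TPM as deposited the groups overlapped, as DOX-positive replicate 1 had 6.29 and DOX-negative replicate 3 had 5.72 TPM, but the 3 DOX-positive values rescaled over protein-coding genes (26.5 to 32.3) were again all below the DOX-negative values (43.5 to 51.5). GRP supplied 21.4% to 25.8% of the summed TPM of the 10 genes without DOX and 15.7% to 18.5% with DOX (exact two-sided permutation p = 0.10, the smallest 3 against 3 allows).

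The GRP call depended on single libraries and on the unit. It was lost without DOX-negative replicate 2, at -0.53 with an adjusted p of 0.10, and without DOX-negative replicate 3, at -0.69 with an adjusted p of 0.071. It was also lost in the 3 limma-trend fits of TPM as deposited, where the change was between -0.58 and -0.50 and the adjusted p from 0.86 to 1.0. GRP was lower with DOX in all 21 alternatives and called in 16 of them, with adjusted p values from 0.00032 to 1.0.

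**Figure D2:**
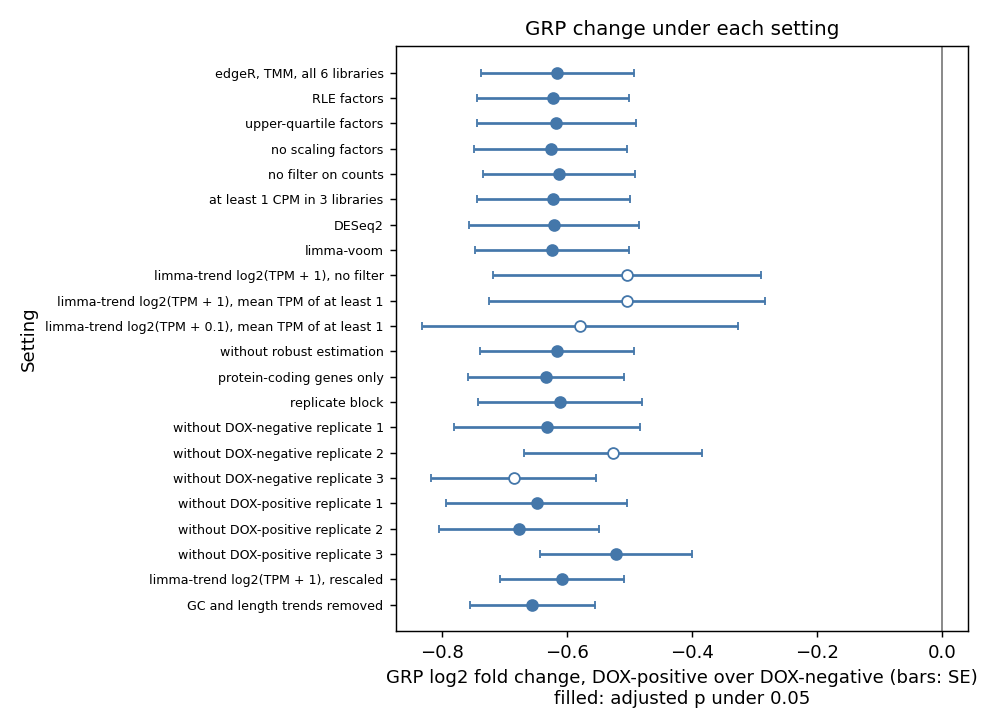
Log2 fold change of GRP (x axis, DOX-positive over DOX-negative, bars are SE) under the reported fit and 21 alternatives (y axis), filled where the adjusted p was under 0.05. All estimates lie between -0.69 and -0.50, and 5 alternatives are open.

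NMU was at 2.72, 2.13 and 2.08 CPM without DOX and at 3.03, 3.33 and 3.19 CPM with DOX. Its groups did not overlap in CPM either, as was true of 3 of the 7 tested members (GRP, NMU and ADCYAP1) and of 28.1% of all tested genes. In TPM as deposited the NMU groups overlapped, as DOX-negative replicate 1 had 1.90 and DOX-positive replicate 2 had 1.84 TPM. Rescaled over protein-coding genes, the NMU groups did not overlap. The NMU means were 2.31 ± 0.36 and 3.18 ± 0.15 CPM (SD, n = 3), for a log2 change of 0.45 (SE 0.15, 95% interval 0.14 to 0.77), and the adjusted p of 0.094 from edgeR missed the threshold. It missed the threshold in all 21 alternatives, with values between 0.31 and 0.59.

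ADCYAP1 was at 17.0, 18.6 and 17.6 CPM without DOX and at 16.5, 14.6 and 13.7 CPM with DOX. In CPM the highest DOX-positive library lay just below the lowest DOX-negative library. In TPM as deposited the groups overlapped, as DOX-positive replicate 1 had 3.36 TPM, above the DOX-negative values of 2.45 to 3.35. Rescaled over protein-coding genes, the groups did not overlap. The log2 change, DOX-positive over DOX-negative, was -0.25 (SE 0.095, 95% interval -0.45 to -0.042; edgeR adjusted p = 0.16). GAL and ADCYAP1 each overlap a further gene in the RefSeq names table, as does VIP, so their counts carry that uncertainty.

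CALCA was at 20.8, 21.4 and 22.7 CPM without DOX and at 20.1, 24.7 and 23.2 CPM with DOX, a log2 change of 0.064 (SE 0.094, 95% interval -0.14 to 0.27; edgeR adjusted p = 0.75). CALCB was at 13.4, 14.0 and 14.6 CPM without DOX and at 11.8, 13.9 and 11.2 CPM with DOX, a log2 change of -0.19 (SE 0.10, 95% interval -0.41 to 0.034; adjusted p = 0.32). For both genes the groups overlapped. Within libraries the ratio of CALCA to CALCB in TPM was 1.06 ± 0.010 without DOX (1.05 to 1.07) and 1.27 ± 0.13 with DOX (1.17 to 1.42; SD, n = 3), so that the ratios of the groups did not overlap (exact two-sided permutation p = 0.10, the smallest this design allows). This ratio was chosen with the levels of both genes known.

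GAL and NTS were the least precise of the tested genes. GAL ranged from 1.30 to 1.53 CPM without DOX and from 1.27 to 1.85 CPM with DOX, for a log2 change of 0.073 (SE 0.19, 95% interval -0.35 to 0.49; edgeR adjusted p = 0.87). NTS ranged from 0.70 to 0.90 CPM without DOX and from 0.49 to 1.05 CPM with DOX, for a log2 change of -0.032 (SE 0.28, 95% interval -0.64 to 0.57; adjusted p = 0.96). With 36 to 79 NTS counts per library, changes smaller than these intervals were not detectable.

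**Figure D3:**
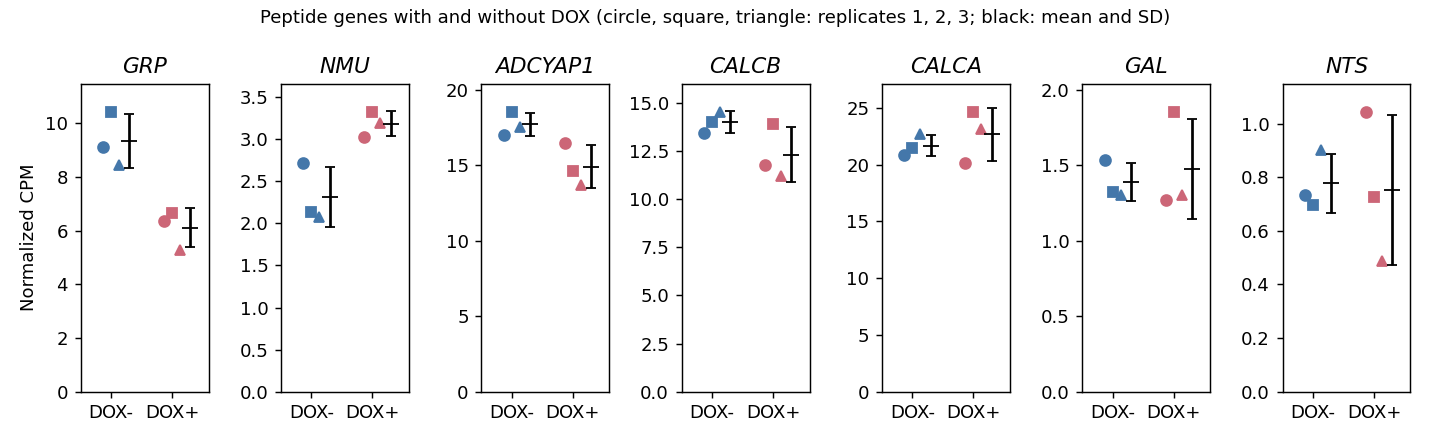
Normalized CPM (y axes start at 0) of the 7 tested peptide genes in DOX-negative (blue) and DOX-positive (red) libraries, with replicates 1 to 3 as circle, square and triangle and black bars for mean ± SD. GRP falls from 9.33 to 6.10 CPM without overlap, NMU and ADCYAP1 do not overlap but miss the threshold, and the other 4 genes overlap.

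The genes whose profile over the 6 libraries was most like that of GRP were DACT2, PCDHB14 and ACKR3, among 14586 candidates with a mean of at least 50 counts. DACT2 encodes a modulator of Wnt and TGF-beta signaling, PCDHB14 a protocadherin, and ACKR3 a scavenging chemokine receptor. Their centered log2 CPM differed from that of GRP by a root mean square of 0.030, 0.032 and 0.051, against a median of 0.33 over the candidates. Each fell with DOX, by 0.60, 0.63 and 0.58 on the log2 scale, with adjusted p values from edgeR of 0.023, 0.026 and 0.0085. These genes were chosen for their likeness to GRP over the same libraries, so their fall and its p values follow from that choice. Likeness over 6 libraries that share their groups is a description only.

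The receptors through which these peptides act were mostly at low levels in H660 cells. Of 27 receptor and receptor partner genes, 4 reached a mean of 1 TPM as deposited, 15 could be tested and 4 had 0 counts in every library. The 4 abundant genes were RAMP1 at 20.9 TPM, a partner protein of the CGRP receptor, SORT1 at 14.8 TPM, a sorting receptor that also binds neurotensin, RAMP2 at 5.96 TPM, an adrenomedullin receptor partner, and VIPR1 at 1.56 TPM, a receptor for VIP and PACAP. CALCRL, the receptor that RAMP1 needs to bind CGRP, was at 0.023 TPM with a mean of 17.0 counts. GRPR, the GRP receptor, was at 0.049 TPM with a mean of 14.3 counts. On TPM rescaled over protein-coding genes, TACR3 (mean 5.66), SSTR1 (4.65), SSTR5 (1.48) and NMUR2 (DOX-positive mean 1.01) also reached 1, so these levels depend on the compressed scale. CALCRL, GRPR, TACR3, SSTR5 and NMUR2 are named after their values were seen.

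With DOX, 1 of the 15 tested receptor genes rose and 1 fell, 13.3% of those tested against 4.87% of all genes, and 13 did not pass. The groups did not overlap for 8 of the 15, against 28.1% of all tested genes. SSTR1, a somatostatin receptor, rose from 4.45 ± 0.52 to 7.23 ± 0.70 CPM (SD, n = 3), a log2 change of 0.70 (SE 0.13; edgeR adjusted p = 0.012). All 3 DOX-positive libraries (6.71 to 8.03 CPM) were above the DOX-negative libraries (4.14 to 5.05 CPM), and the call was lost without DOX-negative replicate 2 (adjusted p = 0.074) or 3 (0.085). NTSR1, the main neurotensin receptor, fell from 0.74 ± 0.11 to 0.37 ± 0.061 CPM, a log2 change of -0.99 (SE 0.25; adjusted p = 0.043). NTSR1 rested on 19 to 43 counts per library and lost its call in 9 of 17 alternatives, including DESeq2 (adjusted p = 0.058), limma-voom (0.051) and each fit without 1 library (0.064 to 0.17). The most abundant genes of this list did not pass. The receptor partners RAMP1 and RAMP2 were at 0.26 (SE 0.13, edgeR adjusted p = 0.29) and 0.28 (SE 0.15). The sorting receptor SORT1 was at 0.0092 (SE 0.067) and VIPR1 at -0.14 (SE 0.092). The median of the 15 was 0.19.

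Among peptide processing genes CPE and PCSK2 fell with DOX and SCG5 rose. Of 15 such genes 13 were tested, of which 1 rose, 2 fell and 10 did not pass. That is 23.1% called, against 4.87% of all tested genes, with a median of -0.073. CPE, the carboxypeptidase that trims the cut peptides, was the most abundant at 40.3 TPM and fell from 215.7 ± 18.7 to 160.2 ± 16.1 CPM (SD, n = 3), a log2 change of -0.43 (SE 0.091; edgeR adjusted p = 0.023). PCSK2, a prohormone convertase, fell from 59.8 ± 1.71 to 41.5 ± 5.43 CPM (-0.53, SE 0.096; adjusted p = 0.013). SCG5, the chaperone of that convertase, rose from 1.79 ± 0.27 to 2.93 ± 0.57 CPM (0.71, SE 0.18; adjusted p = 0.047), a call lost in 12 of 19 alternatives. In all 3 cases the groups did not overlap, as was true of 5 of the 13 tested genes and of 28.1% of all tested genes. The others without overlap, named after their values were seen, were CADPS at -0.60 (SE 0.17, edgeR adjusted p = 0.089) and PAM at -0.072 (SE 0.071). CPE and PCSK2 lost their calls without DOX-negative replicate 2 (adjusted p = 0.0996 and 0.066) and without DOX-negative replicate 3 (0.13 and 0.085), and CPE also without DOX-positive replicate 3 (0.064). The convertase inhibitor PCSK1N (32.0 TPM), carboxypeptidase CPD (16.3 TPM) and vesicle priming factor CADPS2 (7.57 TPM) did not pass, at 0.31 (SE 0.14), -0.079 (SE 0.11) and 0.0036 (SE 0.081).

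Among 14 peptide-degrading enzymes 12 were tested and 0 were called by edgeR, DESeq2 or limma-voom, with 5 of the 12 at an unadjusted p under 0.05 in edgeR (21.1% of all tested genes) and a median log2 fold change of -0.092. The most abundant were ECE1 (29.1 TPM, -0.03, SE 0.074), THOP1 (19.3 TPM, 0.20, SE 0.082), PREP (9.34 TPM, 0.015, SE 0.072) and NLN (4.23 TPM, -0.15, SE 0.084), of which THOP1 and NLN cleave neurotensin.

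A wider list of 59 other peptide genes was used to place these genes among their kind. Of those, 10 reached a mean of 1 TPM as deposited, 26 were tested and 11 had 0 counts in every library, among them INS, GCG and CARTPT, named after their values were seen. Only NPY, the gene for the appetite-stimulating neuropeptide Y, was called, and 25 did not pass. That is 3.85% of those tested, below the 4.87% over all tested genes. NPY was at 5.29, 4.36 and 3.13 CPM without DOX and at 6.28, 8.31 and 8.11 CPM with DOX, so all DOX-positive libraries were above the DOX-negative libraries. Groups without overlap were found for 9 of the 26 and for 28.1% of all tested genes. For NPY the change was as follows. It rose from 4.26 ± 1.08 to 7.57 ± 1.12 CPM (SD, n = 3), a log2 change of 0.82 (SE 0.17; edgeR adjusted p = 0.023). The call was lost without DOX-negative replicate 2 or 3 and without DOX-positive replicate 2 or 3 (adjusted p from 0.057 to 0.11). The others of highest level were STC2 (12.5 TPM), a glycoprotein hormone, ADM2 (4.81 TPM), an adrenomedullin relative, and NPW (2.46 TPM), a neuropeptide, with log2 values of 0.19 (SE 0.076, adjusted p = 0.18), 0.19 (SE 0.090) and 0.18 (SE 0.21). The median of the 26 was 0.13.

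**Figure D4:**
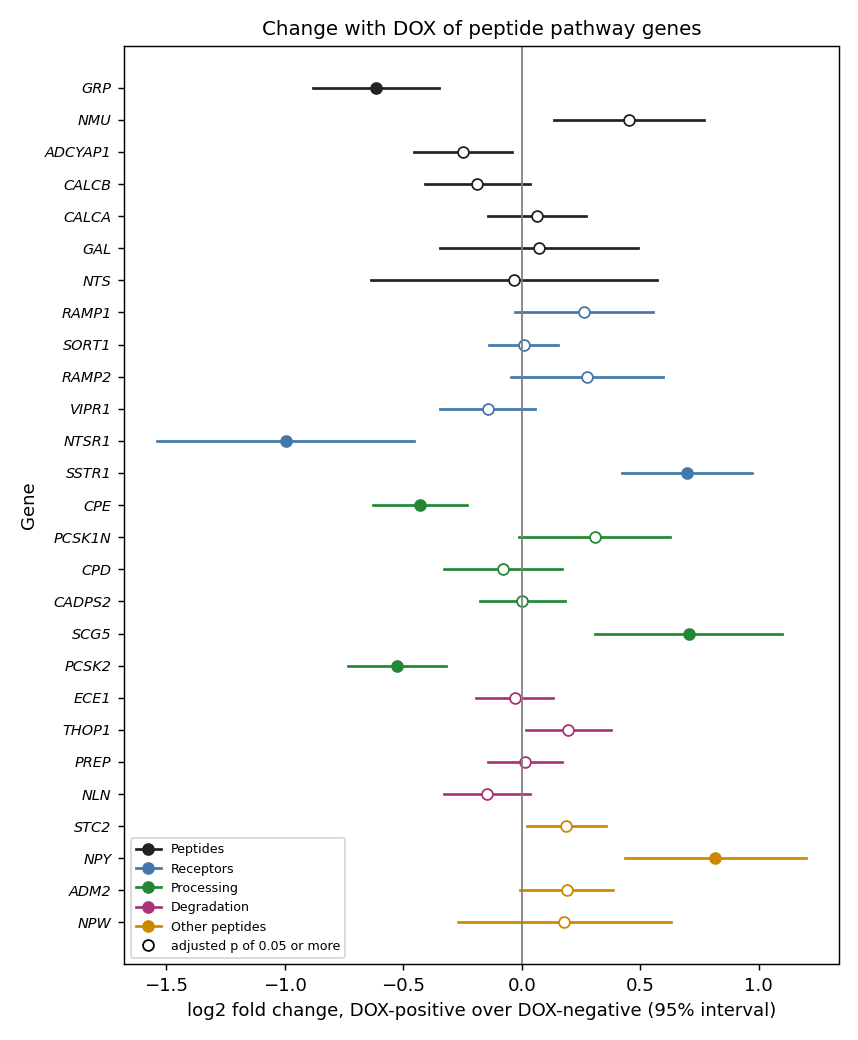
Log2 fold change (x axis, DOX-positive over DOX-negative) with its 95% interval for the 7 tested peptide genes and the named receptor, processing, degradation and other peptide genes (y axis), filled where the edgeR adjusted p was under 0.05. GRP at -0.62 is the filled point among the peptide genes, beside PCSK2, CPE and NTSR1 to the left of 0 and SSTR1, SCG5 and NPY to the right.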

How the data were processed

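RNA-Seq was performed by the authors on 6 H660 libraries, for which the labels name a stranded mRNA kit. Yet protein-coding genes held 13.2% to 19.65% of the TPM, and the top entry was RN7SK or SNORD3A, which are not mRNAs. The reason for this difference was not tested. Raw counts for 28008 gene symbols and TPM for 25673 symbols were deposited by the authors. Per the labels, the processing notes name STAR, DESeq2 and the build GRCh38, while the aligner version, the strand setting and the annotation are not given in the sources used here. Groups were read from the sample titles, since the treatment field has the same entry for all 6 libraries, and the agents and doses come from the study's methods.

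DOX-positive and DOX-negative counts were compared in edgeR 4.0.16 under R 4.3.3, after filterByExpr and TMM scaling, by a robust quasi-likelihood model, two-sided and without covariates, with Benjamini-Hochberg adjustment over all 17026 tested genes and a threshold of 0.05. SE were derived from the F statistic. CPM use the TMM factors, and levels between genes use TPM. The 10 members and the lists of receptor, processing, degradation, other peptide and cell type marker genes were written from general knowledge, with earlier results of these data known. Named beyond MUC1 and the members were, from each list, the 4 tested genes of highest mean TPM and up to 4 called genes of largest change, and the 3 genes most like each called member.

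Alternatives were RLE, upper-quartile or no scaling factors, other count filters, DESeq2 1.42.0, limma 3.58.1 (voom, and trend on log2 of TPM plus 1 or 0.1), no robust estimation, protein-coding genes only, a replicate block and leaving out each library. Fits that used rescaled TPM (over protein-coding genes), or that had GC and length trends removed (GENCODE transcripts, matched for 93.0% of tested genes), were added after the data were seen. RefSeq biotypes matched 91.6% of symbols. The code was tested on simulated counts for this comparison, with 200 genes changed by a log2 change of 1 among 16885 genes. There edgeR recovered 96.5% of the 200 genes, and 9.81% of its calls were unchanged genes. This false share was above the adjusted p threshold of 0.05. Recovery of smaller changes, such as those of GRP, CPE and PCSK2, was not tested. Counting intervals cover counting error only.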

Additional observations from a re-analysis of the deposited data

How the results depend on the processing

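Fold changes were recomputed for 27 genes, MUC1 apart. With all 6 libraries, 356 alternative values had the same sign and call as reported, 23 lost the call, 1 gained it and 14 turned sign. With 1 library left out, which leaves fewer samples, the numbers were 125, 24, 1 and 12. On unfiltered log2(TPM + 1), MUC1 was at -1.22 without a call, in a limma fit that called 0 genes (1248 had an unadjusted p under 0.05).

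The 829 called genes became 1355 with DESeq2, 2106 once GC and length trends were removed, 486 on rescaled TPM, and 30 and 35 on TPM of at least 1 with pseudocounts of 1 and 0.1. The range was 58 to 1035 when 1 library was left out (58 and 127 without DOX-negative replicates 3 and 2, 375 without DOX-positive replicate 3). Higher genes were 496 of the 829 but 13 of the 30 and 16 of the 35. The 3 fits of deposited TPM called 0 members, 0 receptors, 0 processing genes and 0 other peptide genes. Receptors called were 1 with DESeq2, limma-voom, the filter at 1 CPM and rescaled TPM. Degradation enzymes called were 1 without a count filter, among protein-coding genes and under the replicate block, and 2 with trends removed. Leaving out 1 library gave 0 to 1 members, 0 to 1 receptors, 0 to 4 processing genes, 0 to 1 degradation enzymes and 0 to 1 other peptide genes. A limit of 5 TPM left 3 expressed members. What caused these shifts was not tested.

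Signs turned where changes were near 0. With 1 library left out, NTS ranged from -0.37 to 0.22, GAL from -0.11 to 0.17, NPW from -0.0028 to 0.42, ECE1 from -0.072 to 0.0068, PREP from -0.0063 to 0.035, CPD from -0.16 to 0.064, SORT1 from -0.018 to 0.025 and CADPS2 from -0.058 to 0.078. NTS was at 0.0037 on unfiltered log2(TPM + 1), and with trends removed NTS was at 0.026 and GAL at -0.00098. Among protein-coding genes PREP was at -0.0030, SORT1 at -0.0096 and CADPS2 at -0.015. SORT1 and CADPS2 were at -0.0016 and -0.0055 without scaling factors and at -0.0034 and -0.013 on rescaled TPM. CADPS2 was at -0.0024 with RLE factors, -0.00098 with upper-quartile factors, -0.0036 with the filter at 1 CPM and -0.00088 under the replicate block.

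Replicate numbers were not taken as pairs, because same-numbered libraries deviated from their groups with correlations of -0.57, 0.022 and -0.077 over 14587 genes. The replicate block called 998 genes and 1 member, GRP, at -0.61 with an adjusted p of 0.0032 in edgeR. Depth limits NTS, SST, VIP, TAC1 and most receptors. Rescaled TPM and trend removal were chosen after seeing the data.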
